A study of Chlorocebus sabaeus with 10 samples.

Results

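The secreted apolipoproteins of liver and MTTP, the microsomal triglyceride transfer protein, were examined as 10 genes chosen by symbol: APOA1, APOA2, APOA4, APOA5, APOB, APOC1, APOC3, APOE, APOH and MTTP. Each symbol matched 1 of the 28078 annotated transcripts in the deposited table, and all 10 transcripts had enough counts to be among the 7948 that were tested. The samples were liver biopsies of 10 female vervet monkeys (Chlorocebus sabaeus, an Old World primate), flash frozen after collection and sequenced as polyadenylated RNA with 1 library per animal. All animals ate chow before the study, and then 5 were fed a high fructose diet (HFr) and 5 stayed on chow for 6 weeks. The paper states that the assignment balanced age and body weight. It reports a higher mean age on HFr than on chow, without a significant difference, and age was not a term in the tests here. A biopsy holds all cell types of liver, so fewer cells of a type and less RNA per cell cannot be told apart. The question was whether the transcripts of lipoprotein assembly differed between animals on the 2 diets.

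Apolipoproteins are the protein part of the particles that carry lipid in plasma. In hepatocytes, MTTP transfers triglyceride onto the nascent APOB chain in the endoplasmic reticulum (ER), and the particle gains lipid and smaller apolipoproteins before it is secreted as very low density lipoprotein (VLDL). Fructose is taken up largely by the liver, where it is a substrate for new fatty acids, and VLDL is the main route by which hepatic triglyceride leaves the organ.

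No difference between the diets was detected for any of the 10 transcripts beyond the spread between animals. The highest ratio of HFr to chow was 1.44-fold for APOA5 and the lowest was 0.877-fold for MTTP, with APOA4 (1.20-fold) and APOC3 (1.27-fold) between APOA5 and the rest. In edgeR's quasi-likelihood test 0 of the 10 had an unadjusted p under 0.05, against 4.29% of all tested transcripts (2.06% higher and 2.23% lower on HFr). The adjusted p of each was 0.9996, and 0% of all tested transcripts had an adjusted p under 0.05. The animals of the 2 diets overlapped for all 10, while the diets did not overlap for 0.214% of tested transcripts in the direction of HFr and for 0.327% in the direction of chow. Of the 10 transcripts, 6 had a log2 fold change above 0 and 4 below (2 and 8 without chow replicates 1 and 5), and the share above 0 over all tested transcripts was 49.8%. The median size of the log2 fold change was 0.13 over the 10 and 0.17 over all tested transcripts.

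**Figure D1:**
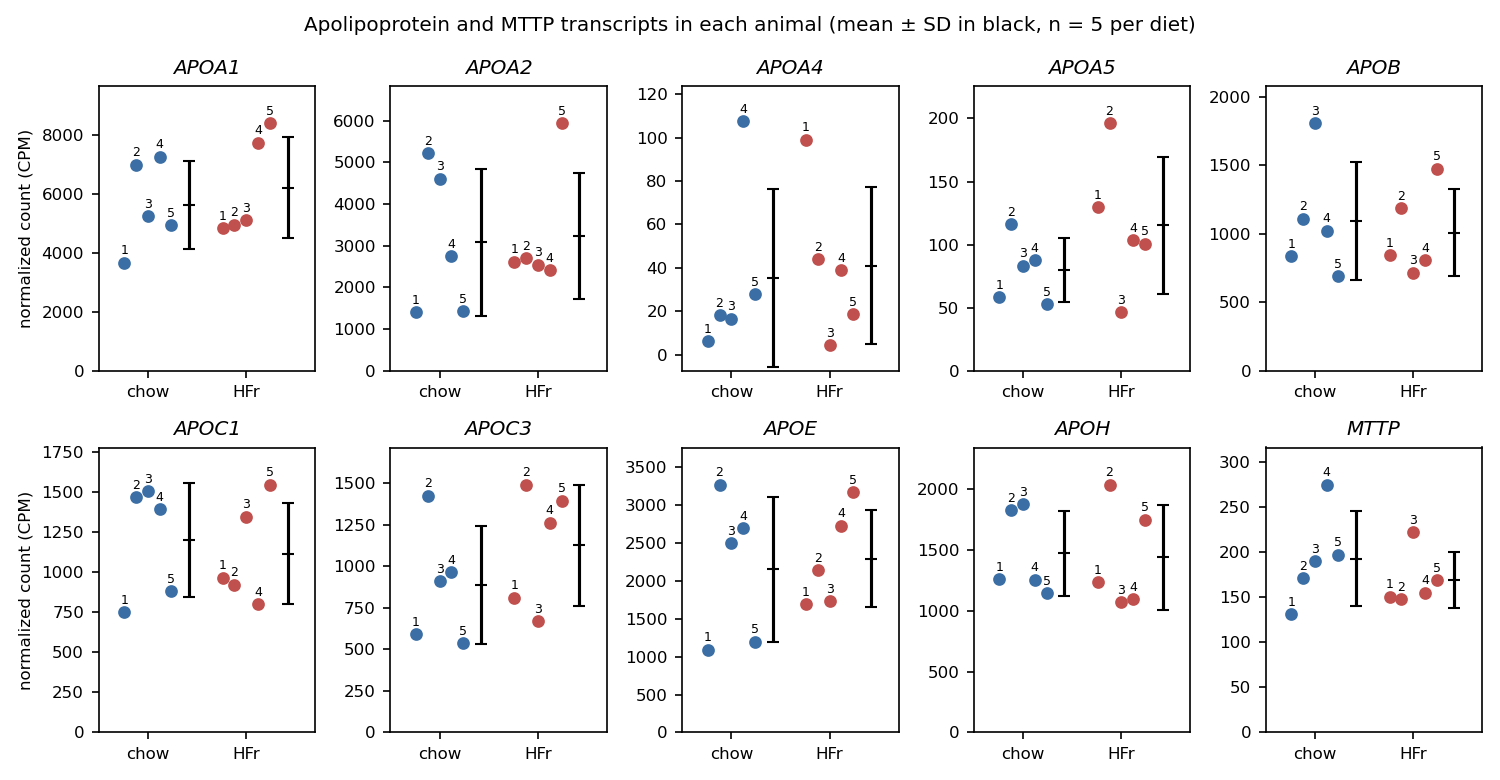
Normalized counts (CPM, vertical axis) of the 10 transcripts in each animal by diet (horizontal axis), numbered by replicate, with mean ± SD in black (n = 5 per diet). The animals of the diets overlap in every panel. The APOA4 axis runs below 0 only to hold the SD bar of the chow animals.

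APOB, the structural protein of VLDL, and MTTP, which loads it, are the pair without which the particle does not form. APOB lies on chromosome 14 of the ChlSab1.1 assembly from 86624332 to 86668705. Its normalized counts, that is estimated counts scaled to the library size adjusted by TMM, the trimmed mean of M values (CPM), were 847, 1189, 718, 809 and 1476 in HFr replicates 1 to 5. In chow replicates 1 to 5 they were 836, 1110.3, 1807, 1023 and 691. The chow animals held both the highest and the lowest value, and the means were 1008 ± 317 on HFr and 1094 ± 431 on chow (SD, n = 5 each). The log2 fold change was -0.12, with a standard error (SE) of 0.29 and a 95% interval from -0.74 to 0.50.

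MTTP lies on chromosome 7 from 47717089 to 47765150. It had 150.3, 148, 222, 155 and 169 normalized counts in HFr replicates 1 to 5, and 131, 171, 189.6, 274 and 197 in chow replicates 1 to 5. In the HFr group, 4 of the 5 animals lay close together and replicate 3 stood above them, inside the chow range. The means were 169 ± 30.8 on HFr and 193 ± 52.3 on chow (SD, n = 5 each). MTTP had a log2 fold change of -0.19 (SE 0.21), with a 95% interval from -0.64 to 0.26. This was the narrowest interval of the 10, and it places the ratio of HFr to chow between 0.640 and 1.20.

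APOA5, APOA4, APOC3 and APOA1 lie side by side on chromosome 1, within 48.0 kb. APOA5 (108155641 to 108157376) and APOC3 (108196939 to 108199343) act against each other in plasma: APOA5 promotes clearance of triglyceride by lipoprotein lipase, and APOC3 inhibits it. APOA5 had the largest difference of the 10 in favor of HFr. Its normalized counts were 129.6, 196, 46.4, 104 and 100.7 in HFr replicates 1 to 5, and 58.5, 117, 83.4, 87.9 and 52.9 in chow replicates 1 to 5. HFr replicates 1 and 2 were above all chow animals, whereas HFr replicate 3 was below all of them. The means were 115 ± 54.4 and 79.8 ± 25.5 (SD, n = 5 each). The log2 fold change was 0.53 (SE 0.32), with an interval from -0.16 to 1.22 and an unadjusted p of 0.120 in edgeR's quasi-likelihood test. That p ranked 883 among the 7948 tested transcripts. The difference depended on single animals: it was 0.25 without HFr replicate 2 and 0.72 without HFr replicate 3. The unadjusted edgeR p without HFr replicate 3 was 0.0201, with an adjusted p of 0.979.

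APOC3 had 811, 1492, 669.7, 1263 and 1396 normalized counts in HFr replicates 1 to 5. Chow replicates 1 to 5 had 592, 1425, 910.3, 964 and 538. The 2 lowest animals were on chow, but chow replicate 2 was second only to HFr replicate 2. Means were 1126 ± 365 on HFr and 886 ± 355 on chow (SD, n = 5 each), and the log2 fold change was 0.35 (SE 0.31, 95% interval from -0.31 to 1.005). Thus both APOA5 and APOC3 had higher means on HFr, and neither passed the test.

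APOA4 (108186921 to 108189699), an apolipoprotein made mainly by intestine in humans and by liver in variable amounts, was the most variable of the 10, with 11 to 263 estimated counts per animal. HFr replicates 1 to 5 had 99.1, 44.0, 4.44, 38.9 and 18.6 normalized counts, and chow replicates 1 to 5 had 6.40, 18.2, 16.7, 108 and 28.0. The range over the 10 animals was 24.3-fold, and 1 animal of each diet stood near 100. The mean was 41.0 ± 36.2 on HFr and 35.4 ± 41.1 on chow (SD, n = 5 each). The interval of the log2 fold change, from -1.26 to 1.79 around 0.26 (SE 0.71), was the widest of the 10. Leaving out single animals turned its direction or multiplied it: the log2 fold change was -0.35 without HFr replicate 1 and 1.26 without chow replicate 4. Of the 4 intestinal markers in the table, FABP2 and SI were at 0 counts in all animals, CDX2 had at most 2 and VIL1 had 5 to 50. VIL1, the only one tested, had a log2 fold change of 0.55 (SE 0.34).

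APOA1 (108201439 to 108203610), the main protein of high density lipoprotein (HDL), ranged from 4844 to 8394 normalized counts on HFr and from 3672 to 7256 on chow, with a log2 fold change of 0.14 (SE 0.29, interval from -0.47 to 0.76). Within each animal the ratio of 2 transcripts does not depend on library scaling. The log2 ratio of APOC3 to APOA1 was -2.49 ± 0.45 on HFr and -2.71 ± 0.35 on chow (SD, n = 5 each). For APOA5 to APOA1 it was -5.85 ± 0.88 and -6.15 ± 0.29, and for APOA4 to APOA1 -7.81 ± 1.76 and -7.92 ± 1.20 (SD, n = 5 each). All 3 ratios overlapped between the diets, so the neighbors did not separate the animals by diet relative to APOA1 either.

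APOE and APOC1 are also neighbors, on chromosome 6 from 38376887 to 38381439 and from 38386190 to 38387160. APOE is the ligand by which remnant particles are taken up by liver receptors, and APOC1 slows that uptake. APOE had 1691, 2138, 1736, 2729 and 3168 normalized counts in HFr replicates 1 to 5, and 1093, 3269, 2497, 2699 and 1198 in chow replicates 1 to 5. The chow animals fell at both ends of the range, with replicates 1 and 5 the lowest of all 10 and replicate 2 the highest. Their mean was 2151 ± 962, against 2293 ± 643 on HFr (SD, n = 5 each), and the log2 fold change was 0.09 (SE 0.33, interval from -0.61 to 0.80). APOC1 ranged from 799 to 1547 normalized counts on HFr and from 752 to 1506 on chow, with a log2 fold change of -0.10 (SE 0.27, interval from -0.68 to 0.47). Old World primates carry a second copy of APOC1, so reads may be split between copies and the APOC1 values are less certain. The log2 ratio of APOC1 to APOE was -1.04 ± 0.52 on HFr and -0.76 ± 0.29 on chow (SD, n = 5 each), again with overlap.

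APOA2, the second protein of HDL, lies on chromosome 20 from 2759237 to 2760687. It had 2616, 2700.3, 2542, 2408 and 5937 normalized counts in HFr replicates 1 to 5. In chow replicates 1 to 5 the counts were 1405, 5212, 4604, 2751 and 1432. On HFr, 4 animals were nearly equal and replicate 5 was far above them, whereas the chow animals were spread from the lowest to nearly the highest value. The means were 3241 ± 1511 and 3081 ± 1768 (SD, n = 5 each), and the log2 fold change was 0.07 (SE 0.41, interval from -0.80 to 0.94). Without HFr replicate 5 it was -0.26. APOH encodes a phospholipid-binding plasma protein and lies on chromosome 16 from 55209156 to 55231077. On HFr, replicates 1 to 5 had 1233, 2034, 1072, 1097 and 1746 normalized counts, and on chow 1258, 1826, 1872, 1254 and 1144. On each diet 2 animals stood well above the other 3, and the log2 fold change of APOH was the smallest of the 10, at -0.03 (SE 0.25, interval from -0.58 to 0.51).

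**Figure D2:**
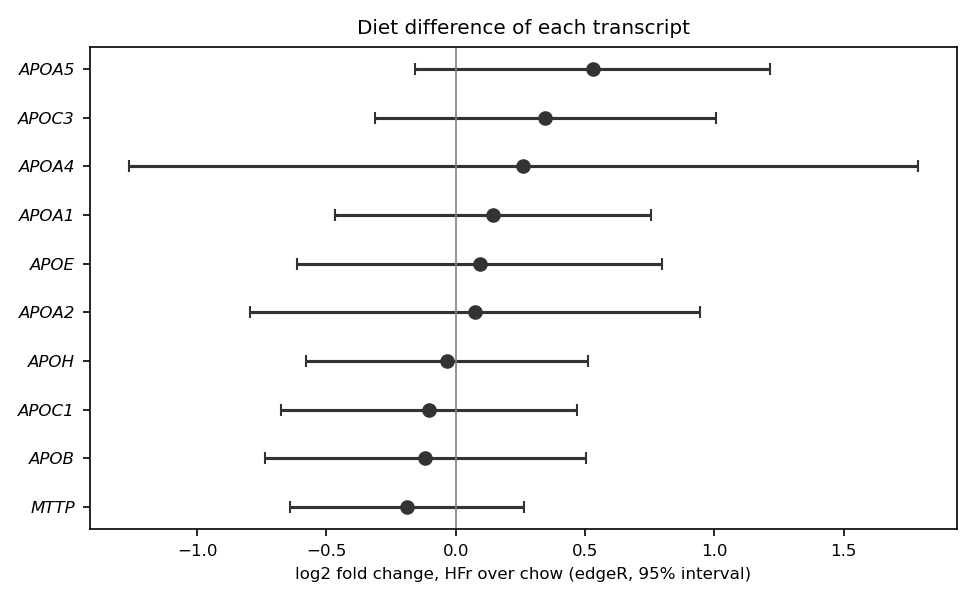
Log2 fold change of HFr over chow (horizontal axis, edgeR) for each of the 10 transcripts (vertical axis), with 95% intervals as bars. Every interval spans 0, that of MTTP is the narrowest and that of APOA4 the widest.

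Together the 10 transcripts took between 3.03% and 5.09% of the nuclear counts of an HFr animal and between 2.59% and 4.88% of those of a chow animal. The means were 3.86% ± 0.82 and 3.63% ± 0.95 (SD, n = 5 each). The spread between animals of one diet differed between these genes and was widest for APOA4 and APOA2. The biological coefficient of variation from edgeR, which measures spread between animals on one diet beyond counting error, was between 26.2% for MTTP and 75.6% for APOA4, with 44.3% for APOA2. For all 10 it was above the median of tested transcripts, which was 25.04%, but MTTP was close to that median. The common value that edgeR fitted over all tested transcripts was 29.0%, and MTTP was below it.

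Chow replicates 1 and 5 were each among the 3 lowest of the 10 animals for 8 of the 10 transcripts. HFr replicate 5 and chow replicate 2 were each among the 3 highest for 6. The mean rank over the 10 transcripts, where 10 is the highest animal, ran from 2.20 in chow replicate 1 and 3.10 in chow replicate 5 to 7.60 in chow replicate 2 and 7.90 in HFr replicate 5. Both ends of that order included chow animals, and the HFr animals lay between 3.60 and 7.90. The same chow replicates 1 and 5 had the highest summed markers of stellate cells and fibroblasts, at 836 and 721 normalized counts, against 180 to 408 in the other 8 animals. Without these 2 animals, a choice made after the values were seen, 2 of the 10 transcripts had a log2 fold change above 0 in place of 6. They were APOA5 at 0.26 and APOC3 at 0.03. The log2 fold changes were then -0.07 for APOA1, -0.38 for APOA2, -0.18 for APOA4 and -0.31 for APOE, which had been above 0, and 0 of the 10 had an unadjusted p under 0.05 in edgeR.

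Correlations were computed on log2 normalized counts centered within each diet, over 10 animals, for the 45 pairs of transcripts. The points share each animal's library and its scaling factor. Of the 45 pairs, 40 had an r above 0, and the median r was 0.51. The same values were not computed for pairs of other transcripts, so whether they are particular to the members was not tested. Without chow replicate 1, the lowest animal by mean rank, 33 pairs were above 0 and the median was 0.36. Without chow replicates 1 and 5, the 2 lowest by mean rank, 29 pairs were above 0 and the median was 0.17. These 2 animals also had the highest stellate cell and fibroblast markers. Leaving out the lowest animals can lower r by itself, so a part of the markers in this fall cannot be told apart from it. APOE had the closest relations, with r = 0.87 for APOC3 (permutation p = 0.00181, adjusted over the 45 pairs 0.0232), for APOA2 (permutation p = 0.00119, adjusted 0.0232) and for APOA1 (permutation p = 0.00315, adjusted 0.0284). Spearman's rho was 0.76, 0.90 and 0.82 for these 3 pairs (permutation p = 0.0142, 0.00073 and 0.00639, adjusted 0.0961, 0.0329 and 0.0575). Without the 2 animals farthest from the median of APOC3, APOA2 or APOA1, r was 0.85, 0.79 and 0.83. APOA2 with APOC1 had r = 0.86 (permutation p = 0.00104, adjusted 0.0232) and rho = 0.87 (permutation p = 0.00222, adjusted 0.04995), and r was 0.80 without its 2 farthest animals. APOB with APOH also had r = 0.86 (permutation p = 0.00206, adjusted 0.0232), with rho = 0.83 (permutation p = 0.0051, adjusted 0.0574), and r was 0.88 without its 2 farthest animals. APOB with APOA2 had r = 0.81 (permutation p = 0.00508, adjusted 0.0374), rho = 0.83 (permutation p = 0.00459, adjusted 0.0574) and r = 0.86 without the 2 farthest. Among the chromosome 1 neighbors, APOA5 with APOC3 had r = 0.78 (permutation p = 0.00581, adjusted 0.0374), rho = 0.76 (permutation p = 0.015, adjusted 0.0961) and r = 0.72 without the 2 farthest. These were the 7 pairs with an adjusted p under 0.05 by r, and 2 of them, both with APOA2, had one by rho. The permutations shuffled all 10 centered values without regard to diet, which makes these p-values somewhat too small. By r, APOB with APOA2 and APOA5 with APOC3 (adjusted permutation p = 0.0374 for both) may not pass when diet is taken into account. By rho, the same holds for APOA2 with APOC1 (adjusted permutation p = 0.04995). Over the 8 animals without chow replicates 1 and 5 the r of these 7 pairs lay between 0.61 (APOA2 with APOE) and 0.89 (APOA1 with APOE). Not all neighbors varied together, since APOA5 with APOA1 had r = 0.24 (permutation p = 0.501, adjusted 0.644) and rho = 0.03 (permutation p = 0.946, adjusted 0.967).

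Of the 5 pairs with an r below 0, 4 held MTTP. Its r was -0.04 with APOB (permutation p = 0.907, adjusted 0.949), -0.26 with APOH (permutation p = 0.455, adjusted 0.614) and -0.31 with APOA5 (permutation p = 0.387, adjusted 0.573). With the other members r ran from -0.07 for APOC3 to 0.58 for APOC1 (permutation p = 0.0802, adjusted 0.190), and no pair with MTTP passed. Whether these correlations are lower than those among the apolipoproteins was not tested. The log2 ratio of MTTP to APOB was -2.54 ± 0.57 on HFr and -2.47 ± 0.61 on chow (SD, n = 5 each), and that of APOA1 to APOB 2.63 ± 0.44 and 2.40 ± 0.56, with overlap for both.

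**Figure D3:**
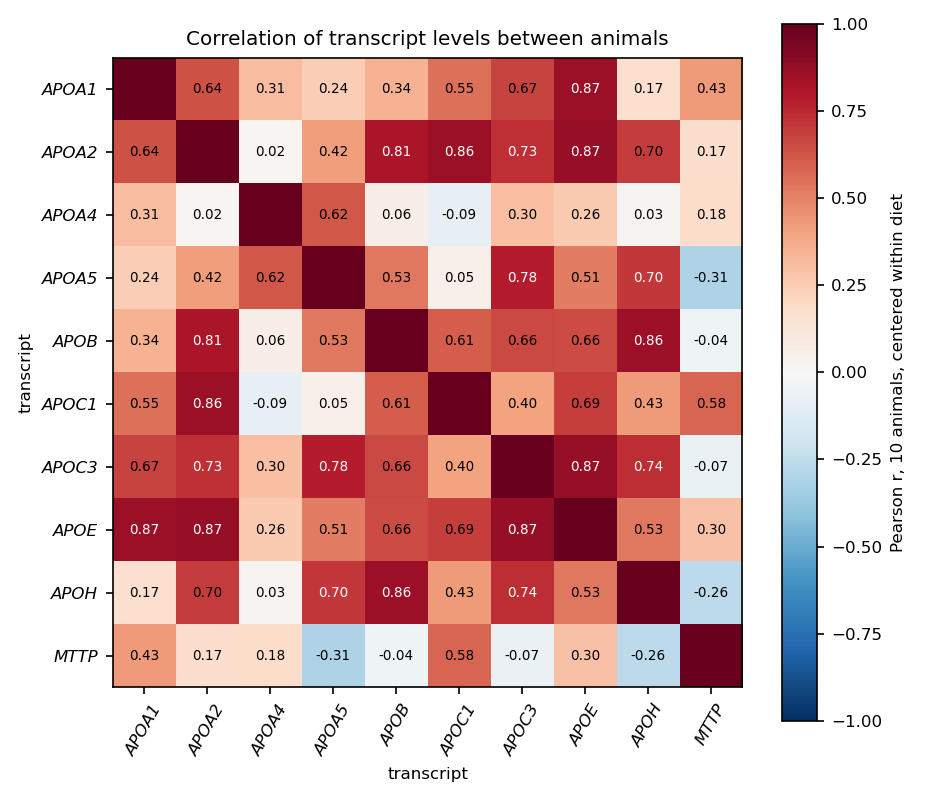
Pearson r (color scale and printed values) between the log2 normalized counts of each pair of transcripts (both axes), over 10 animals after centering within diet. Most off-diagonal cells are above 0 (40 of 45 pairs, and 29 without chow replicates 1 and 5), APOE has 3 cells at 0.87, and the row of MTTP holds the lowest value, -0.31 with APOA5.

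A property of the libraries moved with part of this variation. Mitochondrial transcripts took 34.7% to 73.6% of the counts of an animal, with a mean of 55.5% ± 11.8 on HFr and 55.4% ± 16.5 on chow (SD, n = 5 each, two-sided exact permutation p = 0.992). The 4 animals with a share below 50% were HFr replicates 2 and 5 and chow replicates 2 and 3. These 4 were the highest 4 of the 10 animals for APOH, at 1746 to 2034 normalized counts against 1072 to 1258 in the other 6. They were also the highest 4 for APOB, at 1110.3 to 1807 against 691 to 1023. For the other 8 transcripts the 4 and the 6 animals overlapped. Such a separation upward was found for 1.89% of all tested transcripts and downward for 1.59%. This split was made after the values were seen, and its part in the correlations was tested only by repeating them within the 6 animals above 50%. There the median r of the pairs was 0.58, with 40 of 45 above 0, and the r of APOB with APOH was 0.71. Other pairs with APOH changed more. From all animals to these 6, r went from 0.74 to 0.20 with APOC3, from 0.70 to 0.32 with APOA2 and from 0.53 to 0.04 with APOE. It was also lower with APOA1, APOC1 and MTTP. With APOA4 it went from 0.03 to 0.49, and with APOA5 from 0.70 to 0.73.

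Within these 6 animals MTTP was higher where the mitochondrial share was higher, with r = 0.98 (exact permutation p = 0.00694, adjusted over 10 transcripts 0.0694), rho = 0.94 (exact permutation p = 0.0167) and r = 0.94 without the 2 animals farthest from the median share. It did not pass adjustment and did not extend to the other 4 animals, where MTTP was at 148 to 189.6 normalized counts, within the range of 131 to 274 in the 6. The adjusted exact permutation p of the other 9 transcripts was 0.368 or more. MTTP with APOC1 had r = 0.92 in the same 6 animals. With libraries scaled on nuclear transcripts alone, the r of APOB with APOH over 10 animals was 0.85.

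**Figure D4:**
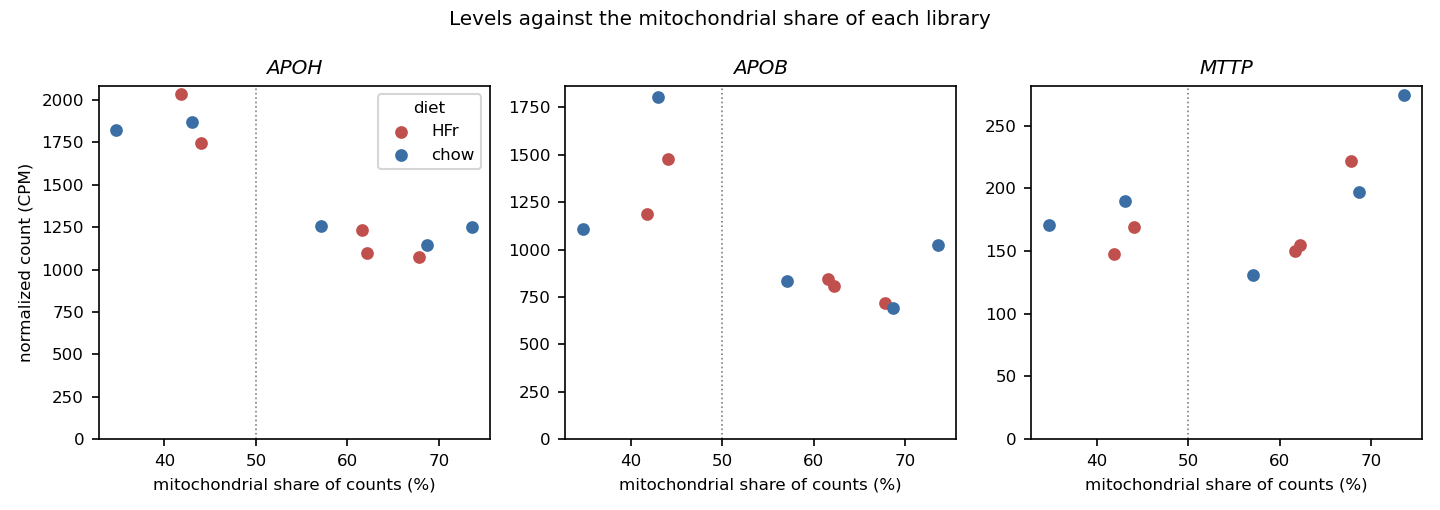
Normalized counts (CPM, vertical axes) of APOH, APOB and MTTP against the mitochondrial share of counts in percent (horizontal axes) in 10 animals, colored by diet, with a dotted line at 50%. The 4 animals left of the line are the highest 4 for APOH and for APOB, and animals of both diets lie on each side.

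For 9 of the members, the transcript with the most similar pattern over the 10 animals was found among all tested transcripts with a symbol, by Pearson r of log2 normalized counts, as a description. For APOE this was ASPDH (r = 0.96), followed by SREBF2, a transcription factor of cholesterol synthesis and uptake, which also had r = 0.96 and the higher rho of 0.98. APOB was most like ACOT13 (r = 0.95), an acyl-CoA thioesterase, and APOH most like CHPT1 (r = 0.96), an enzyme of phosphatidylcholine synthesis. APOA2 paired with SERPING1 (r = 0.95), the plasma inhibitor of complement C1, and APOC1 with GLO1 (r = 0.95), which detoxifies methylglyoxal. Other first matches were HOGA1 for APOC3 (r = 0.94), PRDX5 for APOA5 (r = 0.91), SLC9A3R1 for APOA4 (r = 0.89) and LMTK2 for MTTP (r = 0.96). None of these first matches was itself a member, and each value is the highest over all tested transcripts, so it overstates the relation.

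The rest of the pathway was read from 5 lists. In the list of proteins that help to fold, lipidate or sort the VLDL particle, 14 of 15 genes were in the table and 13 were tested. Of these, 10 were higher and 3 lower on HFr, where 49.8% of all tested transcripts were higher. The median log2 fold change was 0.24 against -0.00075 over all tested transcripts. The genes were measured in the same 10 animals, and this count was not repeated without chow replicates 1 and 5. In edgeR's test 2 of the 13 had an unadjusted p under 0.05, both higher, where 2.06% of all tested transcripts did so in that direction. One was SORT1, the sorting receptor sortilin, which binds APOB in the Golgi. SORT1 had 13.6, 21.8, 9.68, 11.6 and 15.8 normalized counts in HFr replicates 1 to 5 and 7.08, 10.5, 10.5, 7.58 and 7.81 in chow replicates 1 to 5, from 15 to 97 estimated counts. Only HFr replicate 3 fell within the chow range, and the log2 fold change was 0.73 (SE 0.24, edgeR unadjusted p = 0.00898, adjusted p = 0.9996). The other was HSPA5, the ER chaperone BiP, with 158 ± 57.4 normalized counts on HFr and 105 ± 18.5 on chow (SD, n = 5 each). Its log2 fold change was 0.59 (SE 0.25, edgeR unadjusted p = 0.0348, adjusted p = 0.9996). P4HB, the subunit with which MTTP forms its active dimer, had a log2 fold change of 0.18 (SE 0.22), next to -0.19 for MTTP itself. The 3 genes below 0 were DGAT2, which makes the triglyceride (-0.49, SE 0.31), HSD17B13, a lipid droplet protein (-0.35, SE 0.33), and AADAC, a lipase of the ER (-0.14, SE 0.31). P4HB and these 3 were named after their values were seen, and none had an unadjusted p under 0.05. With scaling by library size only, 0 genes of this list were under 0.05 unadjusted, and with 1 animal left out 1 to 3 were.

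The next list held coat proteins and cargo receptors that carry the particle from the ER to the Golgi. Of 18 tested genes (20 of 22 in the table), 10 were higher and 8 lower on HFr, 0 had an unadjusted p under 0.05 in edgeR, and the median log2 fold change was 0.03. CIDEB, a lipid droplet protein that also takes part in VLDL lipidation, was in this list and in the one before. VAMP7, a vesicle fusion protein, had the smallest p of the list (log2 fold change -0.21, SE 0.15, edgeR unadjusted p = 0.200, adjusted p = 0.9996). SURF4, a cargo receptor that moves APOB out of the ER, had 126 ± 9.09 normalized counts on HFr and 126 ± 20.9 on chow (SD, n = 5 each), and was named after its values were seen.

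Of the regulators of apolipoprotein genes, all 25 were in the table and 17 were tested, with 9 higher and 8 lower on HFr, 0 with an unadjusted p under 0.05 and a median log2 fold change of 0.05. CREB3L3, an ER-anchored transcription factor of liver that acts on APOA4, APOA5 and APOC2, came nearest, at 4.59 ± 1.147 normalized counts on HFr and 2.49 ± 1.49 on chow (SD, n = 5 each). It had only 1 to 29 estimated counts per animal, and its log2 fold change was 0.79 (SE 0.38, edgeR unadjusted p = 0.0545, adjusted p = 0.9996). APOBEC1, the enzyme that edits APOB mRNA in the intestine, had 0 counts in all 10 animals.

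Among receptors, lipases and other proteins that act on secreted particles, all 23 were in the table and 18 were tested. Of these, 13 were higher and 5 lower on HFr, where 49.8% of all tested transcripts were higher, and the median log2 fold change was 0.17. The genes were measured in the same 10 animals, and this count was not repeated without chow replicates 1 and 5. Those 2 animals had the lowest summed level of this list, at 922 and 978 normalized counts. The next was 1096 in chow replicate 4. In edgeR's test 3 of the 18 had an unadjusted p under 0.05, all higher on HFr, next to 2.06% of all tested transcripts. LRPAP1, the ER chaperone of lipoprotein receptors, had 26, 26.5, 32.3, 29.8 and 27.9 normalized counts in HFr replicates 1 to 5. In chow replicates 1 to 5 it had 18.5, 19.9, 20.9, 22.2 and 21.6. The diets did not overlap for LRPAP1, which held for 0.214% of all tested transcripts in the direction of HFr. Its log2 fold change was 0.47 (SE 0.15, edgeR unadjusted p = 0.00608, adjusted p = 0.9996). LCAT, which esterifies cholesterol on HDL and is activated by APOA1, had 159 ± 34.5 against 106 ± 23.5 (SD, n = 5 each), with a log2 fold change of 0.58 (SE 0.21, edgeR unadjusted p = 0.0143, adjusted p = 0.9996). LIPC, the hepatic lipase, had 52.5 ± 13.5 against 36.5 ± 10.6 (SD, n = 5 each), with a log2 fold change of 0.53 (SE 0.23, edgeR unadjusted p = 0.0390, adjusted p = 0.9996). None of the 5 genes under 0.05 in these lists passed adjustment, and with scaling by library size only 0 genes of the receptor list were under 0.05 unadjusted.

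Of 14 further apolipoproteins, 7 were in the table and 5 were tested. They divided into 3 higher and 2 lower on HFr, 0 had an unadjusted p under 0.05 in edgeR, and the median log2 fold change was 0.26. APOF, which modulates lipid transfer between particles, had the smallest p, at 65.4 ± 21.0 normalized counts on HFr and 92.4 ± 30.4 on chow (SD, n = 5 each), with a log2 fold change of -0.50 (SE 0.26, edgeR unadjusted p = 0.0789, adjusted p = 0.9996). APOC2, the activator of lipoprotein lipase next to APOE and APOC1, was named after its values were seen. It had 400 ± 179 and 403 ± 199 normalized counts on HFr and chow (SD, n = 5 each), and was the third most like APOH over the 10 animals (r = 0.94).

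Total estimated counts ranged from 2977282 to 4992505 per animal and counts on nuclear transcripts from 864571 to 2657103. The labelled tissue was checked by hepatocyte markers, whose summed level was 48526 to 72906 normalized counts on HFr and 40739 to 84774 on chow. Of 11 hepatocyte markers tested, 9 were higher and 2 lower on HFr, where 49.8% of all tested transcripts were higher, and 0 had an unadjusted p under 0.05 in edgeR. The summed macrophage markers were 114 to 274 on HFr and 72.9 to 281 on chow, endothelial markers 312 to 423 and 242 to 424, lymphocyte markers 17.8 to 30.7 and 16.1 to 22.8, blood cell markers 101 to 336 and 61.3 to 349.7, and cholangiocyte markers 5.998 to 28.7 and 11.1 to 34.9. Of the tested macrophage markers 7 were higher and 1 lower on HFr, and of the endothelial markers 4 and 3. For lymphocyte markers these counts were 1 and 2, for blood cell markers 1 and 0, and for cholangiocyte markers 0 and 2. None of these had an unadjusted p under 0.05 in edgeR. Markers of stellate cells and fibroblasts summed to 227 to 408 on HFr and 180 to 836 on chow, with 6 of 7 tested lower on HFr. Of these, 1, ACTA2, had an unadjusted edgeR p of 0.00646 and an adjusted p of 0.9996. Over all tested transcripts, 2.23% were lower on HFr with an unadjusted p under 0.05. Intestinal markers summed to 6.78 to 11.2 and 2.53 to 12.4, and muscle markers to 0.377 to 2.02 and 0.438 to 2.74, with CKM, MYH2 and MYL1 at 0 in all animals. The 2 highest stellate cell and fibroblast sums were those of chow replicates 1 and 5. Each of these ranges overlapped between the diets, and the part of other cell types in the spread of the apolipoproteins was not tested beyond leaving out those 2 animals.

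**Figure D5:**
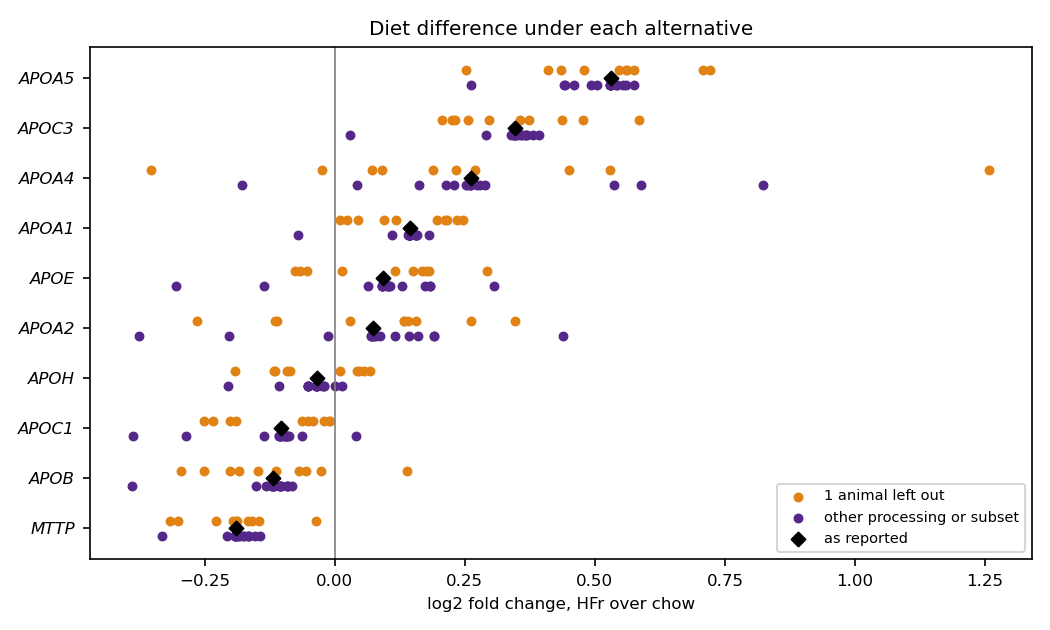
Log2 fold change of HFr over chow (horizontal axis) for each of the 10 transcripts (vertical axis) as reported (black diamonds), with 1 animal left out (orange) and under other processing or subsets of animals (purple). APOA4 moves most, from -0.35 to 1.26. APOA5, APOC3 and MTTP stay on one side of 0, but APOC3 comes down to 0.029 and MTTP up to -0.035.

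The direction of the difference was the same as reported in all 26 alternative settings for APOA5, APOC3 and MTTP. The direction was the same in 25 for APOA1, APOB and APOC1, 23 for APOA4, 21 for APOE, 20 for APOA2 and 19 for APOH. Under none of the 26 did any of the 10 have an adjusted p under 0.05, and the smallest was 0.838.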

How the data were processed

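Polyadenylated RNA of 10 livers was sequenced as 100 base paired-end reads from 500 ng of total RNA. The authors demultiplexed with CASAVA 1.8, aligned to ChlSab1.1 (STAR 2.5.3a is listed in the submitters' processing notes), and estimated counts of Ensembl release 93 transcripts by expectation-maximization in Partek Flow. These estimated counts were deposited without normalization. The normalized signal deposited by the authors, scaled by TMM, served only one alternative test. Counts depend on transcript length, which was not used here, so levels were not compared between genes. The deposited coordinates count from 1 and exclude the listed stop.

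Estimated counts were rounded, filtered with filterByExpr (minimum count 10, minimum total 15), normalized with TMM (factors 0.607 to 1.49) and tested with edgeR 4.0.16 in R 4.3.3 by the quasi-likelihood test with diet as the only term. Adjustment followed Benjamini-Hochberg over the 7948 transcripts, with a threshold of 0.05. The standard error (SE) is the size of the log2 fold change divided by the square root of F. Correlations used 100000 permutations for 10 animals, which were not restricted to within a diet, and all permutations for 6. The edgeR test of diet was tried on simulated counts, and the permutation tests of correlations were not. Members, lists and markers were chosen with earlier results of these data known. Named genes are the members, their closest transcript (that of APOA1 is not reported here), and in each pathway list up to 3 tested genes per direction with the smallest p under 0.05 or, with none, the smallest p. Alternatives used DESeq2 1.42.0, limma 3.58.1 (pseudocounts 1 and 0.1), other normalizations and filters, counts summed by symbol, an equal-variance test, a replicate block and each animal left out. Subsets by mitochondrial share or by stellate cell and fibroblast markers (sum below 500), and mitochondrial share as a covariate, were added after the values were seen.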

Additional observations from a re-analysis of the deposited data

Results flagged for a closer look

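Of 34 groups of values examined, 3 held 1 animal far from the other 4 by Dixon's criterion, which chance meets in about 1 in 20 groups. In HFr replicate 5, APOA2 was at 5937 normalized counts, while the other HFr animals were between 2408 and 2700.3. In chow replicate 4, APOA4 was at 108 normalized counts, while the other chow animals were between 6.40 and 28.0. In HFr replicate 3, MTTP was at 222 normalized counts, while the other HFr animals were between 148 and 169.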

How the results depend on the processing

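All 10 members kept an adjusted p above 0.05 in every alternative run. Scaling by library size only gave 123 of all tested transcripts an unadjusted p under 0.05, in place of 341, and 1 an adjusted p under 0.05, and left 0 in the VLDL assembly list and 0 in the receptor list under 0.05 unadjusted; it moved APOA2 to -0.014. Testing all transcripts with a count in any animal gave 756 under 0.05, and 5 in the receptor list. DESeq2 called 2 transcripts after adjustment, as did the 6 animals above a mitochondrial share of 50%. The VLDL assembly list had 1 gene under 0.05 with limma at either pseudocount, with the equal-variance test and with the replicate block, and 0 in the 6 animals above 50%. The regulator list had 1 with DESeq2, limma at either pseudocount, the equal-variance test, the 4 animals below 50% and the mitochondrial covariate. The receptor list had 0 in the 4 animals below 50%. APOH was at 0.00094 in the equal-variance test. In the 6 animals above 50% APOC1 was at 0.040. In the 4 below, APOA2 was at -0.20, APOE at -0.14 and APOH at 0.014. Without chow replicates 1 and 5, which had the highest stellate cell and fibroblast markers, 2 members were higher on HFr, with APOA1 at -0.071, APOA2 at -0.38, APOA4 at -0.18 and APOE at -0.31, the median r of the pairs was 0.17, and 1 gene each was under 0.05 in the further apolipoprotein, VLDL assembly and regulator lists. Chow replicates 1 and 5 were also the 2 lowest animals by mean rank over the members, so leaving them out raises the chow means by itself. It can also lower the r of the pairs by itself. Why these 2 animals were low, and the cause of the other shifts, was not tested.

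With 1 animal left out, 260 to 408 transcripts had an unadjusted p under 0.05, 0 to 1 of the members did (APOA5 without HFr replicate 3), and 3 (without chow replicate 1) to 8 members were higher on HFr. The range was 0 to 1 for the further apolipoproteins, 1 to 3 for VLDL assembly, 0 to 1 for regulators and 2 to 5 (without HFr replicate 5) for receptors. The log2 fold change ranged from -0.26 to 0.35 for APOA2, -0.35 to 1.26 for APOA4, -0.30 to 0.14 for APOB, -0.076 to 0.29 for APOE and -0.19 to 0.067 for APOH. The median r of the pairs was 0.36 without chow replicate 1 (33 of 45 above 0) and at most 0.56.

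Animals with the same replicate number did not deviate together (r from -0.29 to 0.099, none correlating best with its own number), so the numbers were not read as pairs. With the replicate block 0 members had a p under 0.05, and APOA5 was at 0.46.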
